A study of Mus musculus with 6 samples.

Results

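Star, Cyp11a1 and Cyp17a1 are the genes of the first steps from cholesterol to androgens. They were found by their exact symbols among the 10580 genes of the deposited table, in which all 3 have a row. The RNA came from testes of XY mice carrying an Nr5a1-GFP transgene (genotype Nr5a1 Tg), and the cells had been sorted as alive, single and strongly GFP positive. Fetal Leydig cells (FLCs) were collected at embryonic day E18.5 and adult Leydig cells (ALCs) at postnatal day P100, with 3 libraries per stage and 6 libraries in all. No treatment was given, and cells of several purifications were pooled to obtain enough RNA, so a library is not a single animal. Nr5a1 is also active in Sertoli cells, and the sort therefore rested on the strength of the GFP signal.

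For each gene the deposited table gives 1 level, the authors' mean over the 6 libraries of both stages, in normalized counts (reads divided by a size factor per library). The levels below describe FLCs and ALCs together. No level per library or per stage stands behind them here, so the spread between libraries is unknown, no test was possible, and the difference between FLCs and ALCs was not analysed. The table lists only genes with an adjusted p below 0.05 in the authors' own comparison of the stages (10580 of 10580), so each rank is a rank among listed genes. The means of the listed genes summed to 22228751 normalized counts, with a median of 679.

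In steroidogenic cells, the StAR protein moves cholesterol from the outer to the inner mitochondrial membrane, which is the acutely regulated step of steroid synthesis. There the enzyme encoded by Cyp11a1 cleaves the side chain of cholesterol and yields pregnenolone. The enzyme encoded by Cyp17a1, in the endoplasmic reticulum, adds a hydroxyl group at carbon 17 of pregnenolone or progesterone and then cleaves the bond that leads to the androgen precursors. In the mouse testis these steps take place in Leydig cells.

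All 3 genes were among the most abundant transcripts listed. Cyp17a1 had a mean of 283675 normalized counts and ranked 3 of 10580 genes. Cyp11a1 had 231185 and ranked 5. Star had 87502 and ranked 17. Each mean was over 100 times the median of the listed genes, at 418 times for Cyp17a1, 341 times for Cyp11a1 and 129 times for Star. Together they held 2.71% of the summed means, of which Cyp17a1 took 1.28%, Cyp11a1 1.04% and Star 0.394%. By mean level, Cyp17a1 stood between Aldh1a1 (332373), a retinaldehyde dehydrogenase, and Insl3 (258458), the Leydig cell peptide hormone. Cyp11a1 followed Insl3 and preceded Jak3 (229173), and Star stood between Nr5a1 (101116) and Ephx1 (77477). The 10 genes of highest mean also held the eGFP transgene at rank 1, Hsd3b1 at rank 7 and, below it, Agt, Nr6a1 and Scd2. Jak3 and Insl3 overlap in the genome, so reads could have been counted for both.

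A longer transcript yields more reads, so genes were compared per kilobase of exons, with lengths from GENCODE vM21 on GRCm38. Star, on chromosome 8 from 25806555 to 25815982 on the plus strand, has 4113 bases of exons, of which 852 (20.7%) code for protein in its longest coding transcript. Cyp11a1, on chromosome 9 from 58006411 to 58027023 on the plus strand, has 4804 bases of exons and 1578 coding bases. Cyp17a1, on chromosome 19 from 46667165 to 46673172 on the minus strand, has 2769 and 1521, so more of its exonic length is coding (54.9%). On this scale Cyp17a1 had 102447 normalized counts per kilobase and ranked 2 of 10504 genes with a length, next to Insl3. Cyp11a1 had 48124 and ranked 8, and Star had 21275 and ranked 26. The lincRNA gene Gm17322 lies on the same strand as Cyp11a1 and shares 145 exonic bases with it, a small part of its exons.

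**Figure D1:**
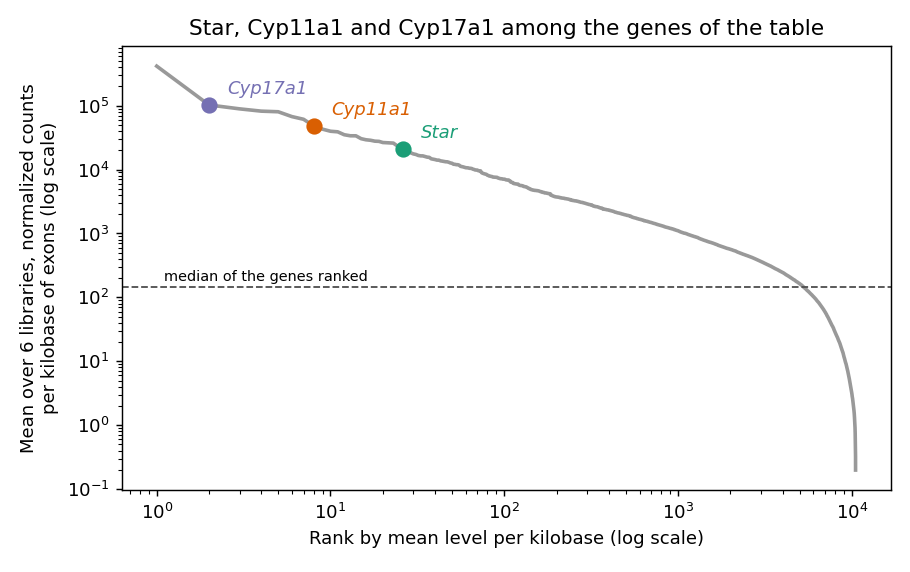
Mean level per kilobase of exons (normalized counts, mean over the 6 libraries, log scale) against rank (log scale) for the 10504 listed genes with an exonic length, as a grey line. Points mark Cyp17a1 at rank 2, Cyp11a1 at rank 8 and Star at rank 26, and the dashed line is the median of 147 normalized counts per kilobase, far below all 3.

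The order Cyp17a1, Cyp11a1, Star was the same for the mean, the mean per kilobase of exons and the mean per kilobase of coding sequence, but the distances between them were not. The level of Cyp17a1 was 2.13 times that of Cyp11a1 per kilobase of exons and 1.27 times per kilobase of coding sequence. Against Star it was 4.82 times and 1.82 times. The level of Cyp11a1 was 2.26 times that of Star per kilobase of exons and 1.43 times per kilobase of coding sequence. Whether neighbours in this order differ beyond the spread between libraries could not be determined.

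Cyp11a1 and Cyp17a1 had the highest levels among the cytochrome P450 genes with a Cyp symbol, a family of heme enzymes of which 25 were listed. The next in level was Cyp51, an enzyme of cholesterol synthesis, with 4410 normalized counts per kilobase of exons, followed by Cyp26b1, which breaks down retinoic acid, with 4299. Per kilobase of coding sequence the order of Cyp51 and Cyp26b1 was the opposite. The study lists Cyp26b1 among its FLC-specific genes, while the means here are over both stages. Cyp11a1 was 10.9 times and Cyp17a1 23.2 times as high as Cyp51 per kilobase of exons. Cyp27a1, a sterol hydroxylase of mitochondria named here after its value was seen, had 769 per kilobase, Cyp2d22 had 619 and Cyp4f13 had 380. The other 23 members had a median of 193. Cyp11b1, which acts late in corticosteroid synthesis in the adrenal cortex, had 73.8. The pair made up 90.3% of the summed means of these 25 genes.

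Star belongs to the genes with a START domain, a fold that binds lipids, and 6 with the symbol Star or Stard were listed. Star was 17.7 times as high per kilobase as the next, Stard5, which had 1200 normalized counts per kilobase and also binds sterols. The remaining members were lower, with 228 for Stard8, 210.3 for Stard10, 101 for Stard9 and 18.1 for Stard6. Star made up 89.2% of the summed means of these 6 genes.

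**Figure D2:**
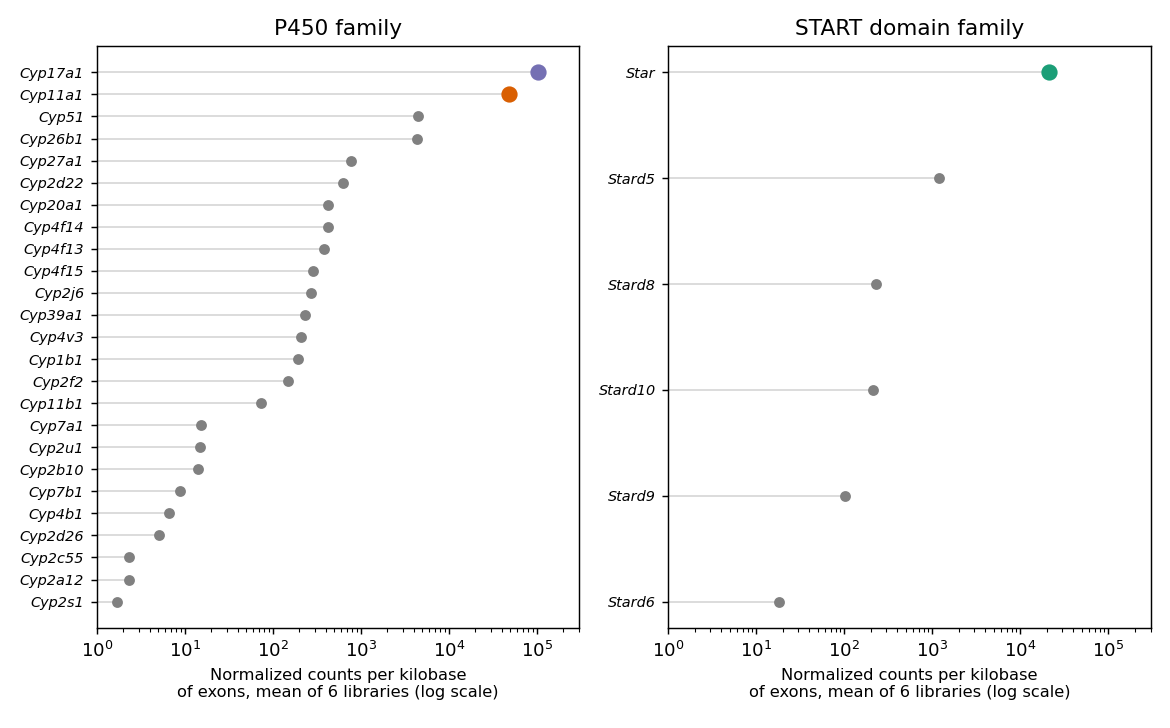
Mean level per kilobase of exons (normalized counts, mean over the 6 libraries, log scale) of the listed P450 genes with a Cyp symbol (left, 25 genes) and of Star and the listed genes with a Stard symbol (right, 6 genes), 1 point per gene. Coloured points are Cyp17a1 at 102447, Cyp11a1 at 48124 and Star at 21275, each to the right of the other genes of its panel that are drawn in grey.

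In the list for cholesterol delivery, 12 of 19 genes had a value, and the others were not analysed here. Star was the highest, at 2.97 times the level per kilobase of Scarb1, the receptor that takes up cholesterol from high-density lipoprotein. Scarb1 had 7175 normalized counts per kilobase of exons. Vdac1, a channel of the outer mitochondrial membrane, had 3760, Tspo, an outer membrane protein that binds cholesterol, had 2100.5, and Soat1, which esterifies cholesterol for storage, had 1698. Without Star, the median of the list was 1200 per kilobase, above the 147 of all listed genes. With Star counted, 11 of the 12 genes lay above 147.

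The mitochondrial P450 of Cyp11a1 receives its electrons from ferredoxin, which is reduced by ferredoxin reductase. Fdxr, the reductase, had 8386 normalized counts per kilobase of exons and Fdx1, the ferredoxin, had 4530. Per kilobase of coding sequence their order was the opposite, with 15877 for Fdxr and 24933 for Fdx1. The level of Cyp11a1 was 5.74 times that of Fdxr per kilobase of exons. Cytochrome b5, which favours the bond cleavage by the Cyp17a1 enzyme, is encoded by Cyb5a, with 1265, while the outer mitochondrial form Cyb5b had 5915. Of the 10 electron donor genes 8 had a value, and all 8 lay above the median of the listed genes. Por, the reductase that serves the Cyp17a1 enzyme, was not analysed here.

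Among 21 of 31 steroid-converting enzymes with a value, Cyp17a1 and Cyp11a1 took places 1 and 3 per kilobase of exons. These places are those of the mean over both stages, and the order within FLCs or within ALCs was not analysed. Hsd3b1, which converts pregnenolone to progesterone, stood between them with 88990 normalized counts per kilobase. The level of Cyp11a1 was 0.541 times that of Hsd3b1 per kilobase of exons but 0.993 times per kilobase of coding sequence, so these levels were close on the second scale. Hsd3b6, another 3-beta-hydroxysteroid dehydrogenase, had 18222, and Hsd17b3, which makes testosterone from androstenedione, had 13358. The study lists both among its ALC-specific genes, while the means here are over both stages. Hsd3b1 and Hsd3b6 are close paralogs between which reads could have been split. The 19 other enzymes had a median of 934 per kilobase, and the lowest was Hsd11b1 with 6.67. Srd5a1, which reduces testosterone to dihydrotestosterone, had 434.

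**Figure D3:**
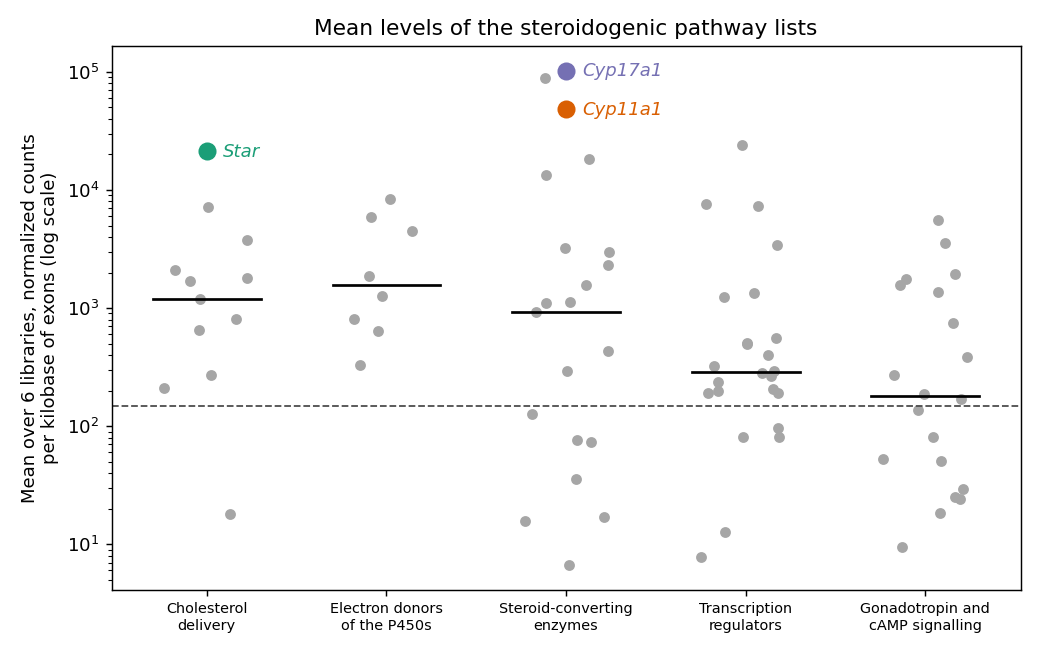
Mean level per kilobase of exons (normalized counts, mean over the 6 libraries, log scale) of the genes with a value in 5 lists, 1 point per gene, spread sideways only for legibility. Black bars are the list medians without Star, Cyp11a1 and Cyp17a1, which run from 1559 for the electron donors to 179 for gonadotropin and cAMP signalling, and the dashed line is the median of all listed genes.

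Transcription of all 3 genes is known to depend on the nuclear receptor NR5A1 and on cAMP signalling, which luteinizing hormone drives in ALCs. For FLCs the study describes luteinizing hormone as apparently not essential. It proposes corticotropin-releasing hormone and ACTH as further inputs there. Nr5a1 itself had 23842 normalized counts per kilobase of exons, in cells that were sorted for a strong Nr5a1-GFP signal. Star was 0.892 times as high as Nr5a1 per kilobase of exons and 1.41 times as high per kilobase of coding sequence, so their order changed with the length used. Cyp11a1 was 2.02 times and Cyp17a1 4.30 times as high as Nr5a1 per kilobase of exons. Of the 35 regulators on the list, 24 had a value and 19 of these lay above the median of the listed genes. After Nr5a1 came Junb with 7544 and Jun with 7380, members of the AP-1 family, in the opposite order per kilobase of coding sequence. Gata4, a zinc finger factor of gonadal cells, had 3425 per kilobase of exons. Nr0b1, a repressor of NR5A1 activity, had 322. In the signalling list 20 of 31 genes had a value, with a median of 179. Prkar2b, a regulatory subunit of protein kinase A, had 5552, and Gnas, which encodes the stimulatory G protein alpha subunit, had 3582. Crhr1, the receptor of corticotropin-releasing hormone, had 1580, and Mc2r, the ACTH receptor, had 81.1. The study reports both receptors as specific to FLCs, while these means are over both stages. Lhcgr, the receptor of luteinizing hormone, was not analysed here.

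NR5A1 binds as a monomer to sites with the core AGGTCA. That hexamer is shown here in capitals because it stands close to a start site of Cyp11a1, on the plus strand, 28 bases before the RefSeq start at position 58014952 of GRCm38.p6. The 30 bases around it are those of chr9:58014912-58014941, where GENCODE vM21 already places the untranslated part of an exon that begins at 58014671.

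Cyp11a1 site: gaggaaggggggAGGTCAccgctccatcag

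Searched on both strands in the 250 bases before each start, AGGTCA was present in 4604 of 32817 RefSeq promoters (14.0%), so its presence is not unusual. The other RefSeq start of Cyp11a1, at 57998024, had no match in that window. The Cyp11a1 site is a match of letters, and binding was not measured. No promoter of Star or Cyp17a1 was among those searched, so whether they hold the hexamer is unknown here.

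Markers of the cells a testis can hold were read only where listed, and listed genes are those that differ between the stages. A marker without a value may be low or high, so these levels cannot show how pure the sort was. The Leydig cell markers Insl3, Hsd3b1 and Fabp3 had between 33708 and 414861 normalized counts per kilobase of exons. Nr5a1 had 23842, but cells were sorted by its GFP transgene, so this level cannot check the sort. Of 6 Sertoli cell markers, 4 had a value, none above 82.2 per kilobase (Amh). These 4 summed to 271 normalized counts, against 87502 for Star alone. The sum leaves out the markers without a value, so it sets no bound on Sertoli cells. The progenitor markers Pdgfra and Tcf21 lay at 216 and 92.0, the endothelial markers Cdh5 and Esam at 316 and 35.7, and the 5 immune markers with a value at or below 219. Among the markers of other cell types with a value, the spermatid genes Prm1 and Tnp1 were the highest, at 2623 and 2301 per kilobase. The germ cell marker Ddx4 had 61.1. The adrenal cortex markers Akr1b7, Mc2r and Cyp11b1 lay between 73.8 and 408. The study reports Mc2r as expressed in FLCs, so it does not mark adrenal cells alone. The myoid and erythroid markers were not analysed here. The part of these cells in the levels of Star, Cyp11a1 and Cyp17a1 was not tested.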

How the data were processed

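RNA of 3 FLC and 3 ALC libraries was sequenced. Per the labels and the study's methods, the libraries were made from total RNA after depletion of ribosomal RNA and keep strand. The study's results text instead names poly(A)+ RNA, and the values do not settle which. The authors demultiplexed the reads with CASAVA 1.8.2 (also in the submitters' processing notes), used GemTools for mapping and an in-house pipeline for counting (GENCODE genes, GRCm38), dropped genes with very few reads and fitted DESeq2. The deposited signal is the authors' average of size-factor-normalized counts across the 6 libraries. The remaining deposited columns hold the authors' own comparison of the stages (log2 fold change, its standard error, Wald statistic and p-values). They were not used, apart from checking which genes the table lists (10580 of 10580 with an adjusted p under 0.05). A sheet of library names was not used. No value per library was used, so the depth per library is unknown and no interval, SD or test could be computed.

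From the mean, ranks, shares of the summed means and levels per kilobase were computed with Python 3.11.15 and pandas 2.3.3. Exonic length is the union of annotated exons, and coding length that of the longest coding transcript, in GENCODE vM21. Symbols were matched directly (10205 genes) or by an older symbol (299), and 76 genes had no length, the transgene eGFP among them. The authors' GENCODE release differs from vM21, so lengths are approximate. Steps were tested on made-up data.

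The members and lists were chosen with earlier results of these data known. Named are the 3 genes, their neighbours by mean, members of 5 pathway lists and 9 cell type marker lists, the 10 genes of highest mean, and the 5 of highest mean in the P450 and START families, which were taken by symbol. Cyp51 was added to the P450 genes after its value was seen. The RefSeq promoters used held entries for Cyp11a1 but none for Star or Cyp17a1, whose promoters were therefore not searched. One marker gene is not reported here.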

Additional observations from a re-analysis of the deposited data

How the results depend on the processing

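Without values per library, no library could be left out and no normalization changed. No paired analysis was possible because the results come from no test. The order Cyp17a1, Cyp11a1, Star was the same on every length scale tried. By rank per kilobase of exons, Star moved from 17 to 26 and Cyp11a1 from 5 to 8, and the ranks by coding length, and those of Cyp17a1, stayed within 1.5 times. Divided by coding length, the levels per kilobase were 102702 for Star, 146505 for Cyp11a1 and 186506 for Cyp17a1. Divided by the longest transcript, an alternative chosen after seeing the data, they were 21627, 67225 and 118050.3. The share of the summed means was 2.72% among genes with a mean of at least 100 and 2.98% without the 10 other genes of highest mean. The planned restriction to a protein table was not run. In its place, also chosen after seeing the data, ranks among genes with a RefSeq protein were 16 for Star, 4 for Cyp11a1 and 2 for Cyp17a1.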
